A study of Homo sapiens with 18 samples.

Results

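The transcriptional response of HTOXAR3 cells to oxaliplatin (OXA) alone was read from 6 of the 18 arrays of the series, 3 from cells given 30 µM OXA for 24 h and 3 from untreated cells, and genes were taken from every spot that is not a control of the array. HT29 is an established line from a human colorectal adenocarcinoma, from which HTOXAR3 descends as a subline with acquired OXA resistance, raised under rising doses of the drug. The sources used here do not say whether HTOXAR3 is 1 clone. The remaining 12 arrays held untreated HT29, HT29 with 10 µM OXA for 24 h, and both lines with the same OXA dose plus 10 µM Curcumin. Each group had 3 arrays, described by the study as biological replicates. OXA was given at the IC50 of each line, so the dose as well as the line differed between HTOXAR3 and HT29. The labels call the control cells untreated, and the study's text uses both this and vehicle.

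OXA is a platinum drug that binds to DNA bases and links them within or between strands. Its adducts stall replication forks and RNA polymerases, and cells remove them by nucleotide excision repair, unhook crosslinks through the Fanconi pathway and pass remaining adducts with translesion polymerases. DNA damage also signals to p53 and to NF-κB, which drives survival and inflammatory genes. Platinum drugs, and OXA in particular, are known to disturb the nucleolus and the making of ribosomes.

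Values were log2 intensities after quantile normalisation, on which scale 1 unit is a doubling. They compare the composition of RNA between arrays, so a change in total RNA per cell, and fewer cells against less RNA per cell, cannot be told apart. A call is named fragile below where it was lost on leaving out at least 1 of the 6 arrays. Between 52.4 and 63.2% of spots were well above background on the 6 arrays. Untreated replicate 2 had the lowest share and the lowest mean correlation with its group (r = 0.985). Untreated replicates 1 and 2 and OXA replicate 1 lay on 1 slide, untreated replicate 3 and OXA replicates 2 and 3 on another. The epithelial markers EPCAM and KRT18 averaged 16.2 and 18.5 in untreated cells, but CDX2, the intestinal master factor, was well above background on only 1 of 6 arrays and the intestinal cadherin CDH17 on none. None of 13 epithelial markers changed, and none of 9 fibroblast markers was well above background on all 6 arrays. Among 9 leukocyte markers, 2 were higher after OXA, among them ITGAM by 0.56, and CD14 was lower by 0.59 (fragile), and the summed intensity of the 9 ran from 3256 to 3394 in untreated cells and from 2451 to 2552 after OXA, a sum carried mostly by CD14, while their mean log2 level ran from 6.08 to 6.19 and from 6.22 to 6.37, while HLA-DRA was not well above background on any array. Among 6 endothelial markers, TEK fell by 1.05 (fragile). The part of other cell types in the results was not tested.

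OXA changed 3709 of 36203 gene names (10.2%) in HTOXAR3, 1921 upward (5.31%) and 1788 downward (4.94%), at a Benjamini-Yekutieli adjusted p below 0.05 in limma and a fold change above 1.2. Most changes were small, with a median size of 0.56 log2 units over the called names, and 468 names passed 2-fold, 250 higher and 218 lower. Since dim probes rarely pass, the lists below are best read against the 17842 names that were well above background on all 6 arrays, of which 19.9% were called, 10.1% higher and 9.82% lower. Over all names the 3 OXA values lay wholly above or below the 3 untreated values in 34.3%, and over names well above background on all 6 arrays in 56.3%. All called names but 1, which lacked a value on an array, showed no overlap and the same sign within each slide. Of 18661 protein-coding names 16.1% were called, 1710 upward and 1298 downward, and of 2774 long noncoding names 6.99%, 54 upward and 140 downward. Leaving out any 1 of the 6 arrays left between 2618 and 2861 calls, 2697 of them without untreated replicate 2. The p-values rest on the spread between biological replicates pooled over all 6 groups of the series, and with the 6 HTOXAR3 arrays alone 592 names were called.

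**Figure D1:**
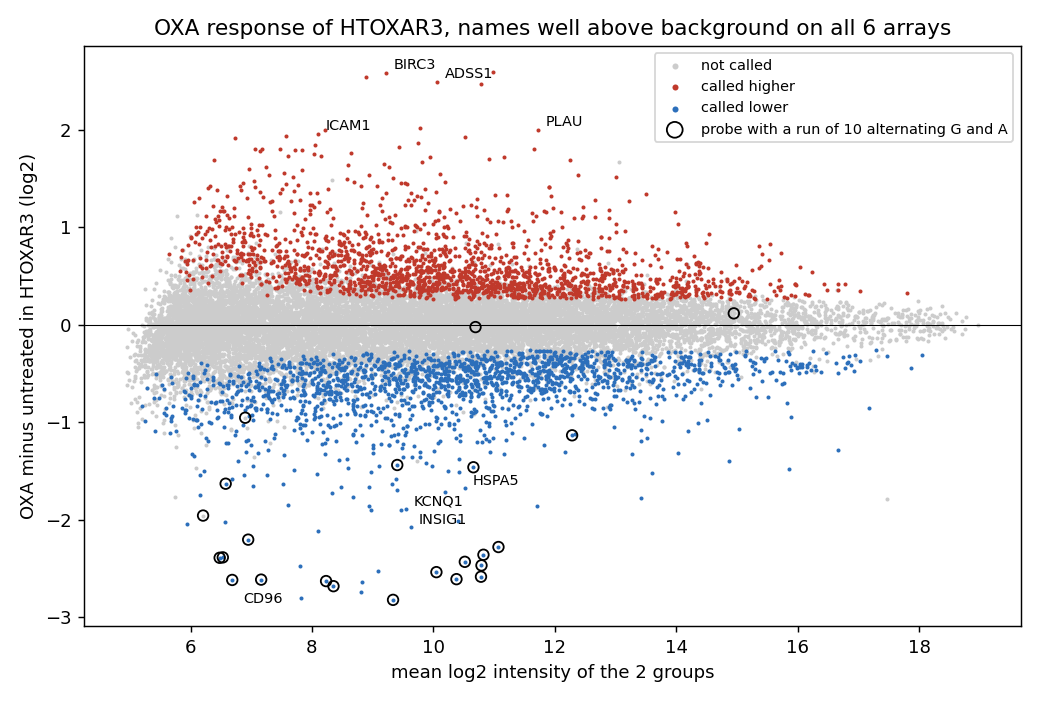
Each point is a gene name well above background on all 6 HTOXAR3 arrays, with the mean log2 intensity of both groups on the x axis and the OXA minus untreated difference (log2) on the y axis. BIRC3 at 2.58 and ADSS1 at 2.49 lie at the top, and most points below -2 are circled, which marks probes with a run of 10 alternating G and A.

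The rise of ZDHHC11 was the largest among names that all 6 arrays read well above background. ZDHHC11, a palmitoyltransferase gene, measured 9.67, 9.68 and 9.73 in the untreated replicates and 11.99, 12.29 and 12.55 after OXA, a rise of 2.59 ± 0.13 (SE, n = 3 and 3). Its near-identical neighbour ZDHHC11B rose by 2.47, and the probes of the pair may read each other. ADSS1, the muscle form of adenylosuccinate synthase, went from 8.82, 8.84 and 8.80 to 11.24, 11.35 and 11.35 (2.49 ± 0.08). DIO3, which inactivates thyroid hormone, and its antisense neighbour DIO3OS rose by 2.01 and 2.00. PLAU, the urokinase protease, rose by 2.00 from 10.65, 10.75 and 10.79 to 12.74, 12.73 and 12.71, and its second probe gave 2.24. The secreted factors PGF, a VEGF family ligand, and CCK, a gut hormone, rose by 1.92 and 1.86, and the metalloproteinase MMP24 by 1.92. Lack of overlap between the untreated and OXA arrays was a condition for naming these genes, so it adds nothing to their rises.

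Of 30 listed NF-κB genes, 10 rose (33.3% of the list), none fell and 20 were not called, with a median of 0.25 against 0.01 over all names. BIRC3, an inhibitor of apoptosis induced by NF-κB, measured 7.84, 7.95 and 8.02 untreated and 10.58, 10.53 and 10.44 after OXA, a rise of 2.58 ± 0.09 (adjusted p = 1.11e-08). All 3 OXA arrays lay above every untreated array by more than 2 units. Among the subunits, NFKB2 went from 7.70, 7.83 and 7.77 to 9.34, 9.47 and 9.40 (1.63), RELB from 12.84, 12.78 and 12.87 to 14.19, 14.29 and 14.02 (1.34), and NFKB1 rose by 0.41. NFKB2 and RELB are the subunits of the alternative pathway, and its kinase MAP3K14 rose as well, by 1.33. RELA measured 0.23 and was not called. The inhibitors and feedback genes NFKBIE, NFKBIZ, TNIP1 and TNFAIP3 rose by 1.09, 0.46, 0.33 and 1.01, and all of these but NFKBIE were fragile. TNFAIP3, which removes activating ubiquitin, was dim and scattered, at 5.97, 5.61 and 6.33 untreated and 7.07, 7.05 and 6.81 after OXA (adjusted p = 0.0441). On leaving out 1 array, 7 or 8 of the 30 were called higher, 7 of them without untreated replicate 2.

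The RefSeq promoters (GRCh38.p14) of these genes were searched for the κB sequence, read as GGG, any 2 bases and TTTCC, on both strands (as were the other sequences below) over the 250 bases before the start, since the list is named for the factor that binds it. It stood in 301 of 16947 promoters (1.78%). Of the 8 called members with a promoter sequence 4 held it, and of the 19 members that were not called 3 held it. The match, in capitals, is shown for BIRC3, whose rise was the largest of the list, for NFKB1, and for NFKBIZ. A match describes the letters and not a bound site.
BIRC3, chr11:102317275-102317304, + strand: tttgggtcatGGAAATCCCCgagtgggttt
NFKB1, chr4:102501300-102501329, + strand: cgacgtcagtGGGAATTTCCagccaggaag
NFKBIZ, chr3:101827757-101827786, + strand: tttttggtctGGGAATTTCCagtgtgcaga

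Chemokines and cytokines, many of which NF-κB induces, split. Of 36 listed, 8 rose and 3 fell, and on leaving out 1 array between 5 and 7 rose. CCL5 and CXCL10, at 0.74 and 1.05, were among the rises and were fragile. IL23A, a subunit of interleukin 23, held 7.62, 7.60 and 7.62 untreated and 10.28, 10.17 and 9.99 after OXA (2.54 ± 0.10). LTB, the lymphotoxin that activates the alternative pathway, rose by 2.70 from 4.91, 4.15 and 4.36 to 7.35, 7.26 and 6.92, although only 1 of its 3 untreated arrays was well above background, and the value ran from 1.42 to 3.57 with the background correction and scaling. The growth factor CSF2 rose by 1.5, TNFSF15 by 1.27 and LIF by 0.74. TNF rose by 0.69 (fragile, lost without untreated replicate 2 or 3 or OXA replicate 1 or 2). IL18, an epithelial inflammasome cytokine, fell by 1.04.

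CXCL1 and CXCL2, which attract neutrophils, differed in their response between the lines. CXCL1 measured 12.04, 12.11 and 12.26 untreated and 12.38, 12.24 and 12.22 after OXA, with overlapping groups and a difference of 0.14 that was not called. CXCL2 fell by 0.82 ± 0.13, from 11.48, 11.29 and 11.39 to 10.58, 10.38 and 10.74 (adjusted p = 0.00422), with no overlap, although its second probe gave only -0.27. In HT29, CXCL1 rose by 1.67 and CXCL2 by 0.56, and the difference between the lines was -1.53 for CXCL1 (adjusted p = 0.00373) and -1.38 for CXCL2 (adjusted p = 0.0064). The CXCL2 line difference did not pass with only the arrays compared (adjusted p = 0.0529), and its fall in HTOXAR3 did not pass when its probes were averaged. CXCL3 and CXCL8 were not called in HTOXAR3, at 0.07 and 0.50. Their line differences, at -0.99 and -1.39, had the same sign as those of CXCL1 and CXCL2 but were not called. ICAM1, the adhesion molecule to which neutrophils bind, rose by 1.96 in HTOXAR3, from 7.12, 7.08 and 7.17 to 9.13, 9.10 and 9.0.

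Of 42 interferon-stimulated genes, 14 rose, 1 fell and 27 were not called, with a median of 0.47. IFIT2, which blocks translation of viral RNA, went from 10.45, 10.29 and 10.31 to 11.62, 11.71 and 11.69 (1.33). Every OXA array exceeded every untreated array by over 1 unit. HERC5, the ligase that attaches ISG15, rose by 1.55, the nuclease ISG20 by 1.19, OASL by 1.18, MX1 by 1.05 and ISG15 itself by 0.66. The RNA sensors RIGI, DHX58 and IFIH1 rose by 1.00, 0.93 and 0.75, and the factors IRF7, IRF1 and STAT2 by 0.62, 0.47 and 0.43. All 14 rises were kept on leaving out any 1 array. The 1 member that fell was IFI35 (-0.53), a call lost whichever of the 6 arrays was left out. In 6 of 11 called members with a promoter the interferon response sequence (TTTC, any 2 bases, TTTC) was found, as in 11 of 21 that were not called, and in 2.7% of all promoters. The stretches of HERC5 and ISG20, both called higher, are shown with the match in capitals.
HERC5, chr4:88457035-88457064, + strand: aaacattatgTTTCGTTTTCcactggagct
ISG20, chr15:88638937-88638966, + strand: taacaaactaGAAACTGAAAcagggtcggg
MHC class I genes, which present peptides to T cells, had 7 rises, 1 fall and 9 members not called among 17 listed, the peptide transporter TAP1 by 0.69, HLA-B by 0.48 (fragile), HLA-C by 0.47 and B2M by 0.31. HLA class I genes are close copies of one another and their probes may share signal. CALR, an endoplasmic reticulum chaperone that loads the complex, was the one that fell (-0.43).

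**Figure D2:**
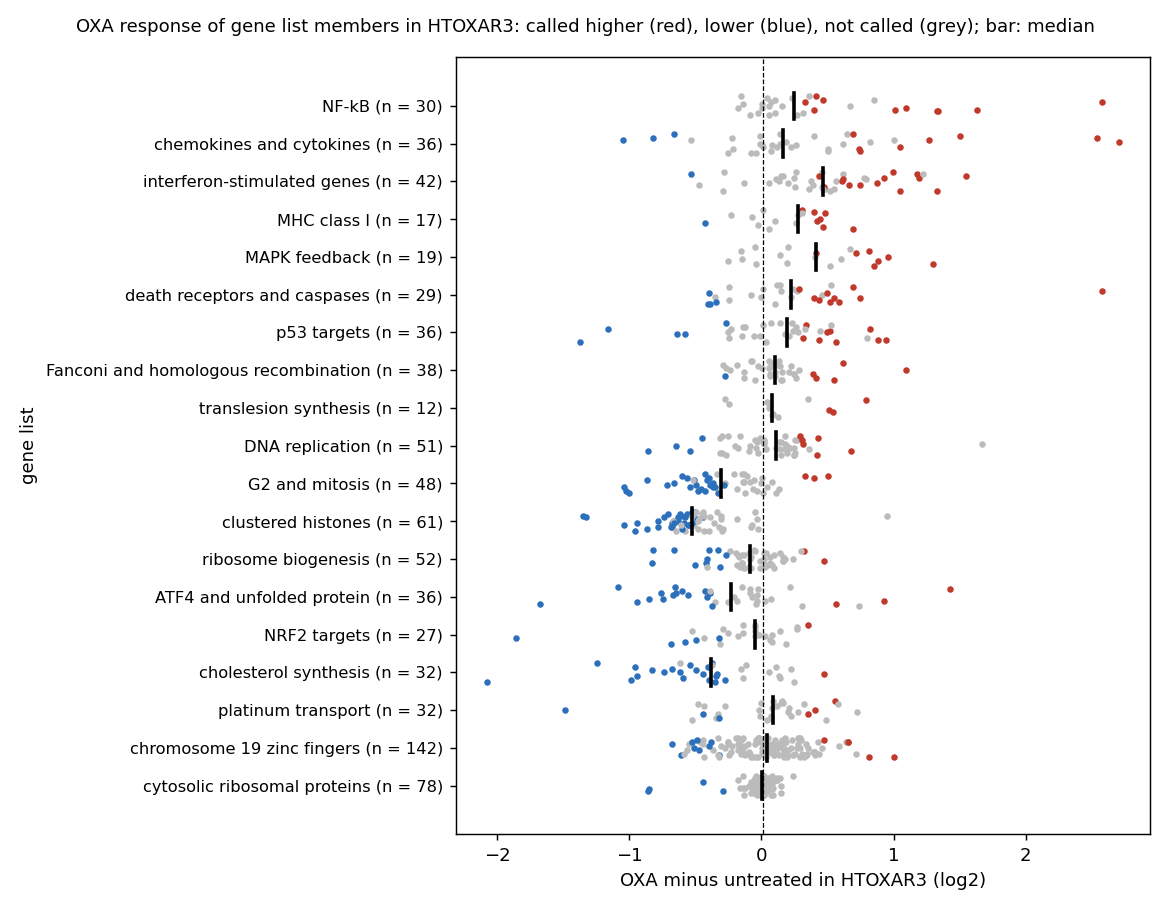
Each point is a member of a gene list, placed by its OXA minus untreated difference in HTOXAR3 (log2), red where called higher, blue where called lower and grey where not called. The black bar is the list's median and the dashed line the median of all names. NF-κB and interferon-stimulated genes lie mostly right of the line, histone, mitosis and cholesterol genes mostly left, and cytosolic ribosomal proteins close to it.

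Of 16 genes of the EGFR family and its ligands, 2 rose (12.5%) and none fell. EGFR rose by 1.18, from 9.69, 9.68 and 9.67 to 10.98, 10.80 and 10.81, and its other probes gave 0.84 and 0.28. Genes of MAPK feedback, which are induced by ERK and switch it off, rose in 7 of 19 and fell in none, with a median of 0.42. DUSP5, a phosphatase of nuclear ERK, rose by 1.30, DUSP6 by 0.96, DUSP4 by 0.81 and the inhibitors SPRED2 and SPRED1 by 0.85 and 0.72. FOSL1, an AP-1 subunit, rose by 0.91, while FOS fell by 0.59 (fragile, lost on 5 of the 6 omissions). KLF4, a stress and differentiation factor, went from 7.74, 7.23 and 8.16 to 8.90, 8.91 and 8.86, and the low value was that of untreated replicate 2. PDGFB and the cytokine signalling inhibitor SOCS3 rose by 1.61 and 1.62, both chosen for naming after their values were seen.

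Of 36 p53 targets, 9 rose and 5 fell. CDKN1A, the p21 inhibitor of cyclin-dependent kinases and the best known target, was dim at 5.72, 5.59 and 5.92 untreated and 6.69, 6.73 and 6.46 after OXA, a rise of 0.88 ± 0.14 (adjusted p = 0.00352). Its groups did not overlap, and in HT29 it measured 0.04, although the difference between the lines did not pass (adjusted p = 0.31). PLK2, GDF15 and SESN2, which p53 shares with other stress pathways, rose by 0.95, 0.82 and 0.56. BBC3, the death protein PUMA, fell by 1.16, PHLDA3 by 0.64 and CCNG1 by 0.57. BTG2 fell by 1.38, a fragile call that was kept on leaving out OXA replicate 3 and lost on leaving out any other of the 6 arrays. MDM2 was not called, and the part of p53 in the changes of these genes was not tested. On leaving out 1 array, 6 or 7 of the 36 were called higher and 3 or 4 lower, and without untreated replicate 2 these were 6 and 4.

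Genes of cell death moved in both directions. Of 29 death receptor and caspase genes, 10 rose and 4 fell, and on leaving out 1 array the rises numbered between 6 and 8, and 6 without untreated replicate 2. The receptors FAS, TNFRSF10B and TNFRSF10A rose by 0.52, 0.49 and 0.44 and the decoy receptor TNFRSF10D by 0.75, of which TNFRSF10A was fragile. FAS measured 8.81, 8.78 and 8.77 untreated and 9.34, 9.25 and 9.33 after OXA. In HT29 it measured -0.24 without a call, and the responses of the lines differed by 0.76 (adjusted p = 0.00358). CASP2 and CASP9 rose by 0.58 and 0.55, whereas CYCS and the inhibitors XIAP and BIRC5 (Survivin) fell by 0.41, 0.34 and 0.39, with XIAP fragile. Other inhibitors of the same list rose, BIRC3 by 2.58 and BIRC2 in a fragile call. In the BCL2 family, 5 of 18 rose and 2 fell. BIK, a promoter of death, went from 8.19, 8.12 and 8.22 to 9.72, 9.78 and 9.63 (1.53 ± 0.07), and BAD and PMAIP1 (NOXA) rose by 0.51 and 0.33. The survival genes BCL2L1 and BCL2A1 rose by 0.79 and 0.53. The PMAIP1 call was lost whichever array was left out, and its response measured -0.29 in HT29 (line difference 0.62, adjusted p = 0.0293).

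**Figure D3:**
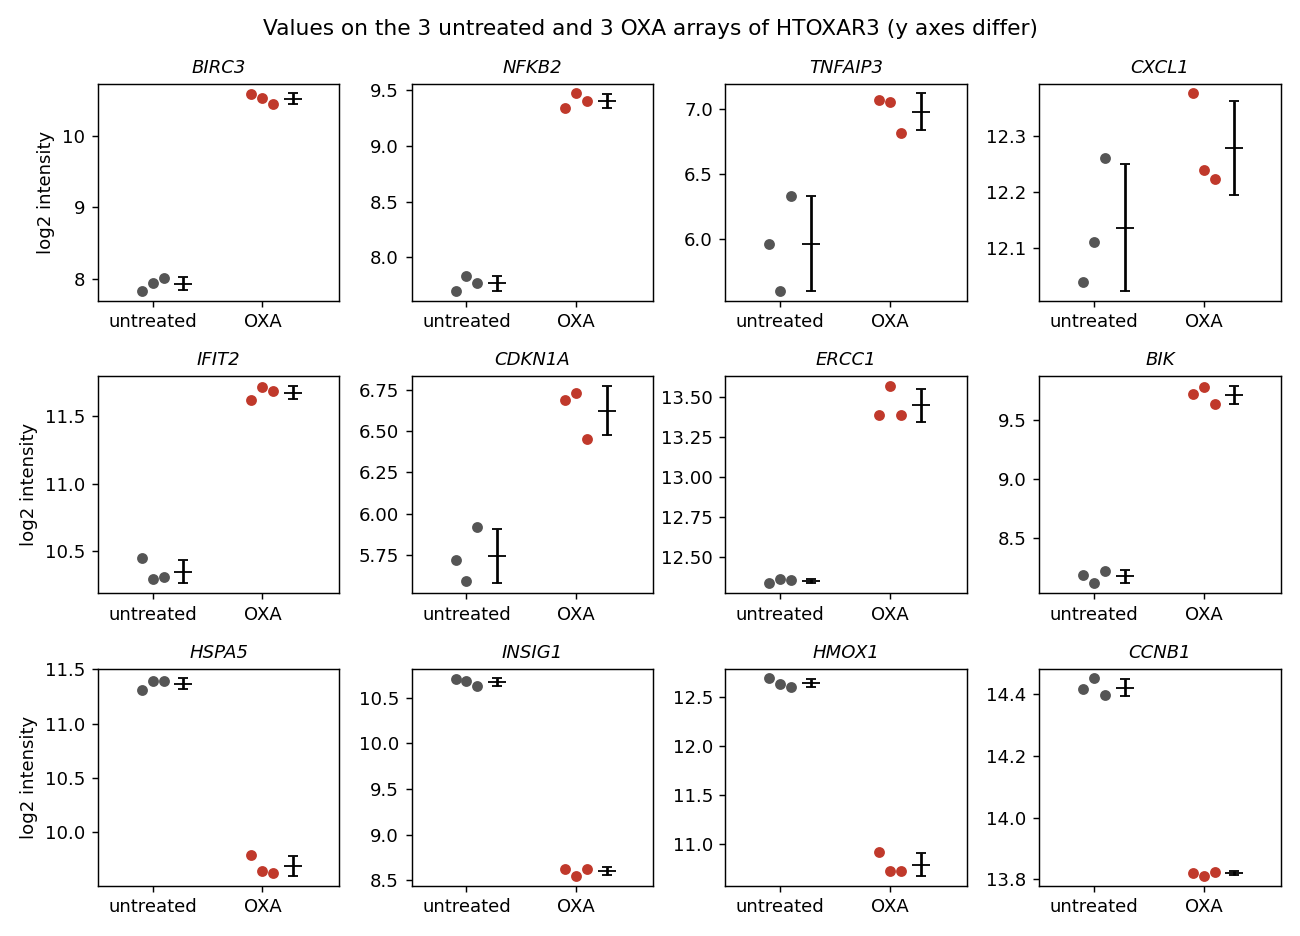
Log2 intensity of 12 genes on the 3 untreated (grey) and 3 OXA (red) arrays of HTOXAR3, with the mean and SD of each group beside the points and a separate y axis for each gene. The groups overlap for CXCL1 and for no other gene shown.

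Among the DNA repair lists, the largest difference was that of ERCC1. The shares called were 15.8% in the Fanconi and recombination list, 13% in nucleotide excision repair, 25% in translesion synthesis and 28.6% in mismatch repair. ERCC1, which with XPF cuts the strand beside platinum adducts and crosslinks, measured 12.34, 12.36 and 12.36 untreated and 13.39, 13.57 and 13.38 after OXA, a rise of 1.09 ± 0.06 (adjusted p = 4.7e-07). A second ERCC1 probe gave 1.16. In the Fanconi and recombination list 5 of 38 rose and 1 fell, and on leaving out any 1 array the rises numbered 2. RAD52, which anneals single strands, rose by 0.62 and the nuclease scaffold SLX4 by 0.39 (fragile). FANCD2, the protein that marks stalled forks, rose by 0.55, but the call was lost whichever of the 6 arrays was left out. Of 23 nucleotide excision repair genes measured, 2 rose, ERCC1 among them, and 1 fell, ERCC5, the other incision nuclease, at -0.59. ERCC5 had further probes at 0.26, -0.08 and -0.41, of which none was well above background on all arrays. Translesion synthesis had 3 rises among 12 and no fall, with RAD18, the ligase that opens this route, at 0.79, MAD2L2, a subunit of polymerase zeta, at 0.54 and the polymerase POLK at 0.51. In mismatch repair MLH3 rose by 0.60 and MSH6 fell by 0.33, out of 7 genes.

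Of 48 listed G2 and mitosis genes, 23 fell, 3 rose and 22 were not called, with a median of -0.30, and on leaving out 1 array between 17 and 21 fell, 19 of them without untreated replicate 2. CCNB1, the mitotic cyclin, went from 14.42, 14.45 and 14.40 to 13.82, 13.81 and 13.82 (-0.60), with no overlap. HMMR and the motors KIF20A and CENPE fell by 1.04, 1.02 and 1.00, the kinases AURKA and PLK1 by 0.87 and 0.56. The 3 that rose were ECT2, CKS1B and KIF2C, by 0.50 (fragile), 0.40 and 0.33. Among checkpoint genes the mitotic phosphatase CDC25C and its opponent kinase WEE1 fell by 0.58 each and the kinase ATR by 0.39, while PKMYT1, the other inhibitory kinase, rose by 0.54. DNA replication genes did not move together, 6 of 51 upward and 4 downward. MCM6, a subunit of the replicative helicase, fell by 0.86, and POLD1, the catalytic subunit of polymerase delta, rose by 0.68. GINS1 was listed at 1.67 without a call because untreated replicate 2 alone read 8.78 where the other 5 arrays read between 13.88 and 13.98. In the promoters, the letters TTTGAA, a core of the element bound by the mitotic repressor complex, stood in 14 of 23 called members, in 14 of 19 that were not called and in 11.1% of all promoters.

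Histone genes of the replication-dependent clusters had the highest share of negative differences among the lists. Of 61 measured, 31 fell and none rose, the median was -0.52, and 60 of 61 had a negative difference. The linker histone H1-3 went from 14.03, 13.87 and 13.89 to 12.72, 12.55 and 12.53 (-1.33), and H1-5 fell by 0.94. H2A genes fell in 12 of 15 (median -0.61), H3 genes in 6 of 11 and H2B genes in 8 of 18, but H4 genes in only 2 of 11, although the H4 median of -0.52 was similar. In HT29, 49 of the 61 fell. Between 13 and 20 were called on leaving out 1 array, 16 of them without untreated replicate 2, and 38 with slide as a block. The members are near-identical copies whose probes may share signal. Their mRNAs end mostly without a poly(A) tail, the labelling kit used here primes on poly(A), and the part of this in the result was not tested.

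Of 52 ribosome biogenesis genes, 10 fell, among them factors that transcribe ribosomal DNA, 2 rose and 40 were not called. The list median was -0.08, with 20 members above 0 and 32 below. For its 14 polymerase I genes the median was -0.02, with 7 above 0 and 7 below. UBTF, which opens ribosomal DNA for RNA polymerase I, went from 9.85, 9.95 and 9.90 to 9.0, 9.09 and 9.14 (-0.82), and the polymerase I genes TAF1D, POLR1D and POLR1C fell by 0.66, 0.41 and 0.31. BOP1, needed for the large subunit, fell by 0.82. The processing factors NOP16 and NOP56 fell by 0.50 and 0.40, whereas UTP4 rose by 0.47 and the polymerase I subunit POLR1E by 0.32. Of 78 cytosolic ribosomal proteins, 74 were not called and the median was 0.00, with falls for RPL27A, RPL3, RPL10A and RPS9 of 0.86, 0.85, 0.44 and 0.29 (the last fragile). Small nucleolar and Cajal body RNAs, which guide the modification of ribosomal and spliceosomal RNA, had 21 falls and 6 rises among 320 names, of which 221 were well above background, with a median of -0.15. Of 297 names classed as small nucleolar with a current symbol, 7.07% were called, against 10.2% of all names. SCARNA9 fell from 10.54, 10.51 and 10.22 to 8.52, 8.42 and 8.62 (-1.90), and SCARNA17 by 1.45. SCARNA20 and SNORA17B rose by 1.27 and 1.10.

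Of 36 genes of ATF4 and the unfolded protein response, 15 fell, 3 rose and 18 were not called. Of the 15 that belong to the endoplasmic reticulum 7 fell and none rose. HSPA5, the main chaperone of the endoplasmic reticulum, went from 11.31, 11.39 and 11.40 to 9.79, 9.65 and 9.63, a fall of 1.68 ± 0.08 (adjusted p = 2.8e-07). HERPUD1, XBP1, SDF2L1, HSP90B1, PDIA4 and MANF fell by 0.85, 0.76, 0.74, 0.60, 0.55 and 0.41. In contrast DDIT3 (CHOP), a factor tied to cell death, rose by 1.42, from 8.0, 8.07 and 8.20 to 9.53, 9.51 and 9.51. PPP1R15A, which DDIT3 induces, rose by 0.93, and SESN2 was the third rise. Of 21 ATF4 genes in the list, 8 fell and 3 rose. The falls included genes of amino acid supply, ASNS by 1.09, the transporter SLC7A5 by 0.67 and the serine synthesis genes PHGDH, PSAT1 and PSPH by 0.65, 0.64 and 0.37 (PSPH fragile). SLC7A5 fell more in HT29 (-1.53, line difference 0.86, adjusted p = 0.00083).

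The promoters of 3 of 17 called members held the endoplasmic reticulum stress element (CCAAT, any 9 bases, CCACG), which stood in 19 promoters of all (0.112%) and in 1 of 15 members not called. The 3 genes, HSPA5, XBP1 and HSP90B1, all fell. The element is in capitals.
HSPA5, chr9:125241385-125241414, - strand: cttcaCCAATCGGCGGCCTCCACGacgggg
XBP1, chr22:28800597-28800626, - strand: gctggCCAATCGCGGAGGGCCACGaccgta
HSP90B1, chr12:103930211-103930240, + strand: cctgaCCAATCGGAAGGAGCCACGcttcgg

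Cholesterol synthesis showed the largest share of falls of the lists. Of 32 genes, 20 fell and 1 rose (65.6% called), with a median of -0.38, and on leaving out 1 array the falls numbered 15 or 16, and 16 without untreated replicate 2. INSIG1, which holds the sterol sensor back and is itself a sterol target, measured 10.71, 10.68 and 10.63 untreated and 8.62, 8.55 and 8.62 after OXA, a fall of 2.08 ± 0.10. The transcription factor SREBF1 fell by 0.99. Of 20 enzymes 15 fell, from HMGCS1 at -1.25 and SQLE at -0.96 to EBP at -0.27 (fragile). The fatty acid genes FASN, SCD and ACACA fell by 0.62, 0.44 (fragile) and 0.37. The gene that rose was INSIG2 (0.47), the relative of INSIG1 that is not under sterol control in the same way. The letters CACNCCAC stood in the promoters of 2 of 15 called members, INSIG1 and SCD, in 1 of 9 that were not called, and in 4.93% of all.

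Defence against oxidants and drug transport changed at single genes. HMOX1, which breaks down haem, fell by 1.86, from 12.69, 12.63 and 12.61 to 10.92, 10.72 and 10.71. Of 27 NRF2 targets measured, it was 1 of 5 that fell, with AKR1B10, NQO1, GCLC and TALDO1 at -0.68, -0.57, -0.49 and -0.32, and 1 rose, the exporter ABCC1 at 0.35, with TALDO1 and ABCC1 fragile. None of 12 metallothioneins, which bind platinum, was called, and their differences ran from -0.52 to 0.26. Of 32 genes of platinum transport and detoxification, 3 rose and 3 fell (18.8% called). On leaving out 1 array between 1 and 3 rose, not all of them the same genes, and 2 fell. Without untreated replicate 2 these were 1 and 2. The exporter ABCB1 rose by 0.55, a call lost whichever array was left out, and its second probe gave -0.00. The exporter ABCG2 fell by 1.49, from 8.64, 8.29 and 8.43 to 7.11, 6.89 and 6.89. The copper importer SLC31A1, a route for platinum, fell by 0.32, a call lost whichever array was left out, and its relative SLC31A2 rose by 0.41. Heat shock genes fell in 4 of 25 and rose in 1 (20% called), and on leaving out 1 array 2 or 3 fell and none rose. They included HSPA1A and HSPA1B, near-identical copies, at -0.58 each, and the rise was that of HSF1. Of 36 hypoxia and glycolysis genes, 6 rose and 3 fell. ANGPTL4 rose by 1.80 and ENO2 by 0.93, CA12 fell by 1.53, and HK2 fell by 0.41, less than in HT29 (-1.03, line difference 0.62, adjusted p = 0.00463).

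LAMA3 and LAMB3, laminin chains of the basement membrane, rose by 1.17 and 0.59. Of 15 keratins, 3 rose, 1 fell and 11 were not called. KRT17 and KRT80 rose by 1.42 and 0.88, and KRT14 by 1.49 on 1 probe, against -0.13 and -0.20 on its dimmer probes, and KRT13 fell by 0.45 (fragile). Of 27 genes of epithelial to mesenchymal transition 8 rose and 1 fell, and on leaving out 1 array the rises numbered 4 or 5, and 4 without untreated replicate 2. They included SNAI1 at 0.41 and ZEB1, near background at 0.86, and the junction genes OCLN at 0.61 and TJP1 at 0.29 (all fragile but OCLN), and the 1 that fell was the splicing factor ESRP1 (-0.72). Of 30 TGF-beta and BMP genes, 6 rose and none fell, with a median of 0.13. The share called, 20%, was close to the 19.9% of names well above background on all 6 arrays. The ligand BMP2 went from 7.51, 7.31 and 7.37 to 8.81, 8.66 and 8.39 (1.22), and BAMBI, a decoy receptor, from 6.26, 6.03 and 6.09 to 7.31, 7.37 and 7.28 (1.19). Both measured near 0 in HT29, at -0.02 and 0.04, and differed between the lines by 1.25 and 1.16 (adjusted p = 0.00331 and 0.00385).

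Large falls among genes outside the lists, all named after their values were seen, included CD96, known as a receptor of T and NK cells, which fell by 2.80, from 9.16, 9.34 and 9.17 to 6.31, 6.41 and 6.54. In HT29 it was dim, at 4.12 before OXA, so that a fall of this size could not be read there, and its difference of -0.82 was not called. KCNQ1, a potassium channel of crypt cells, fell by 1.89, the hedgehog ligand IHH by 1.90, BCAS1 by 2.01 and DHRS2, a dehydrogenase, by 1.86. IVL, involucrin of the cornified envelope, fell by 1.85, from 8.60, 8.48 and 8.53 to 6.65, 6.90 and 6.51. It was dim in HT29 (4.35 untreated), where a fall of this size could not be read. The lectin CLEC3A, at 14.3 in untreated HTOXAR3 and 6.42 in untreated HT29, fell in both lines, at -1.78 and -2.26.

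Most of the very largest falls belonged to probes of 1 sequence type. Of the 30 largest called falls among names well above background on all 6 arrays, 20 were read by a probe with 8 or more alternating G and A, and of the 31 called names that fell by over 4-fold, dim ones included, 25 were. Over all 115 well detected probes with such a run of at least 8 the median was -0.13, and the falls concentrated in the longer runs. Of 29 probes well above background with 10 or more alternating G and A, 24 fell below -1, against 283 of 24123 probes in all, and their median was -2.29. Runs of equal length of other pairs did not do so, with medians of -0.20 for C and A, 0.33 for C and T, -0.10 for G and T and -0.18 for T and A. Of the 25 gene names read by such a probe 21 were called lower and none higher. The 30-base stretches below come from the probe sequences on the array (probe coordinates on GRCh37), with the run in capitals, and are shown because the run is what the probes have in common.
CASC15, chr6:22110999-22111058, + strand: tagctgaAGAGAGAGAGAGAGAagagagaa
LINC02245, chr2:65129721-65129780, - strand: tacttcAGAGAGAGAGAGAGAGAGtattga
GPR179, chr17:36481599-36481658, - strand: agcaacatcAGAGAGAGAGAacacagaaga
LRRC2, chr3:46557386-46557445, - strand: aaAGAGAGAGAGAtgaaaagagtaggaaaa
CASC15 measured 12.10, 11.57 and 12.34 untreated and 10.17, 9.33 and 9.44 after OXA, a difference of -2.36. The values moved together from array to array. Over 23 of these names the median distance from the untreated mean was 0.16, -0.61 and 0.50 on the untreated arrays and -1.81, -2.55 and -2.62 on the OXA arrays, so that untreated replicate 2 was the lowest of its group and OXA replicate 1 the highest. Probes without such a run for the same genes gave -0.21 and -0.17 for CASC15, -0.11 for LINC02245, -0.71 for LRRC2 and -0.03, 0.06 and 0.09 for XLOC_009911, where a probe with a run of 9 gave -2.63, although several of these were dim. The falls are therefore reported for the probes and not for the genes they are named after. RNA18SN5, the 18S ribosomal RNA, moved between arrays in the same way (18.50, 18.13 and 18.45 untreated, 17.56, 16.04 and 16.11 after OXA) but was not called (-1.79, adjusted p = 0.127). In HT29 it fell, at -3.63. RNA5-8SN5 measured 0.46 without a call in HTOXAR3 and -2.14 in HT29, where it was called (line difference 2.60, adjusted p = 0.00467). RNA28SN5 lay at the top of the scale with values repeated between arrays, so that no difference can be read from it.

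Set beside HT29, the response of HTOXAR3 ran largely in the same direction. HT29 changed 5774 names (15.9%) at its lower dose, 3016 upward (8.33%) and 2758 downward (7.62%), and the comparisons share no arrays. Of the 3709 names called in HTOXAR3, 2983 were called in HT29 in the same direction, which is 80.4% of the HTOXAR3 calls and 51.7% of those of HT29, 716 were not called there and 10 were called in the opposite direction. Those 10 included CXCL2, the dehydrogenase DHRS9, APC2 and DOK7. The difference between the lines itself passed for 364 names (1.01%), of which 182 were called in HTOXAR3. Since line and dose change together, the share of each in these differences cannot be told apart.

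**Figure D4:**
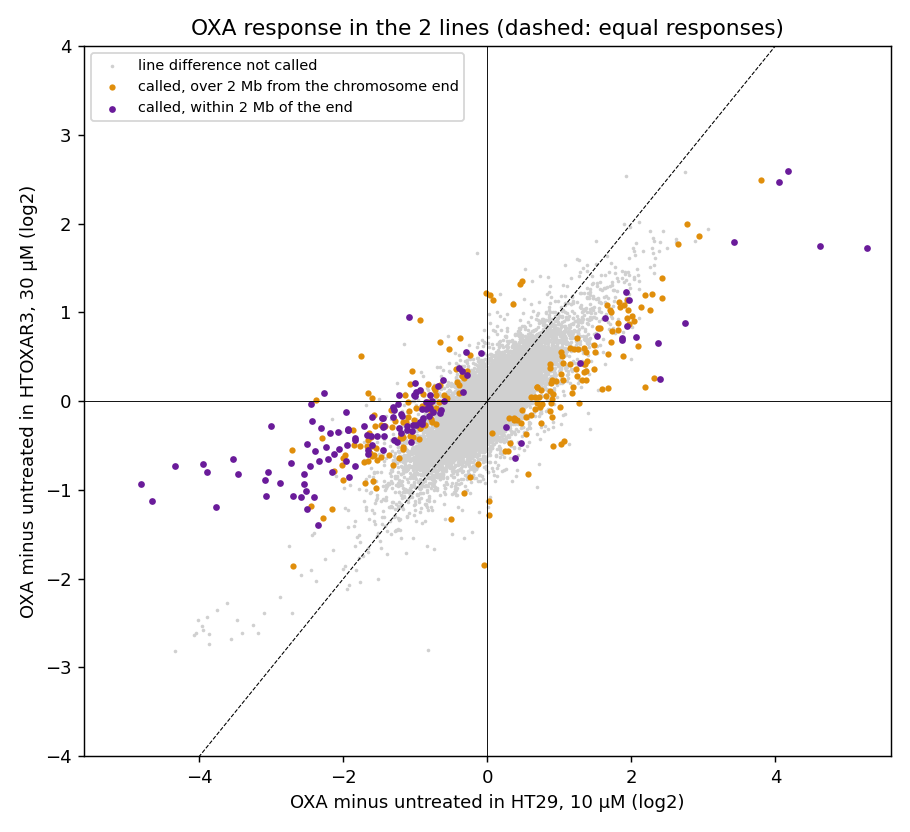
OXA minus untreated difference (log2) of each gene with a probe position, in HT29 at 10 µM (x axis) and HTOXAR3 at 30 µM (y axis), with the dashed line marking equal responses. Genes called in the line difference are coloured, purple within 2 Mb of the chromosome end and orange beyond, and many purple points spread farther along the HT29 axis than along the HTOXAR3 axis, as SLC19A1 does at -4.81 and -0.94.

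The differences between the lines were more frequent near chromosome ends. Of 1423 names well above background with a probe (GRCh37) within 2 Mb of the outermost probe of the chromosome, 129 (9.07%) were called in the line difference, against 4.11% from 2 to 5 Mb and between 0.834 and 1.5% farther in. Of 163 names called both there and in HTOXAR3 that were well above background and had a probe position, 79 lay within 5 Mb of an end, among them the 20 with the largest line differences. Within HTOXAR3, 2.53% of names within 2 Mb and between 1.67 and 2.83% elsewhere were called and past 2-fold. In HT29 the shares were 12.6% within 2 Mb and 4.22% beyond 50 Mb. Neighbouring genes are not independent, so no test was made over them.

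The reduced folate carrier SLC19A1, on chromosome 21 at 1.13 Mb from the end, fell by 0.94 in HTOXAR3, from 11.05, 11.09 and 11.10 to 10.10, 10.10 and 10.23, while its difference in HT29 was -4.81 (line difference 3.88, adjusted p = 1.76e-06). The cell-surface anchor gene PIGQ on chromosome 16 measured -1.13 against -4.66 in HT29, and the ribosome gene BOP1 -0.82 against -3.46. The PIGQ call in HTOXAR3 was fragile, lost without untreated replicate 2 or 3 or OXA replicate 1, and it was also lost with its probes averaged. The line difference of PIGQ was 3.53. ARFRP1 on chromosome 20 measured -0.80 against -3.89, but its other probes gave 0.02 and -0.66 in HTOXAR3. The largest line differences were not all falls. PDE6G, a phosphodiesterase subunit on chromosome 17 at 1.57 Mb from the end, rose by 1.73 in HTOXAR3 and 5.27 in HT29, SPON2 on chromosome 4 by 1.75 against 4.62 (0.94 in HTOXAR3 with its probes averaged) and the neuronal tubulin TUBB3 on chromosome 16 by 0.65 against 2.37. ZDHHC11, the largest rise in HTOXAR3 among names well above background on all 6 arrays, rose by 4.18 in HT29. The pattern was chosen after the values were seen, and its cause was not tested.

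**Figure D5:**
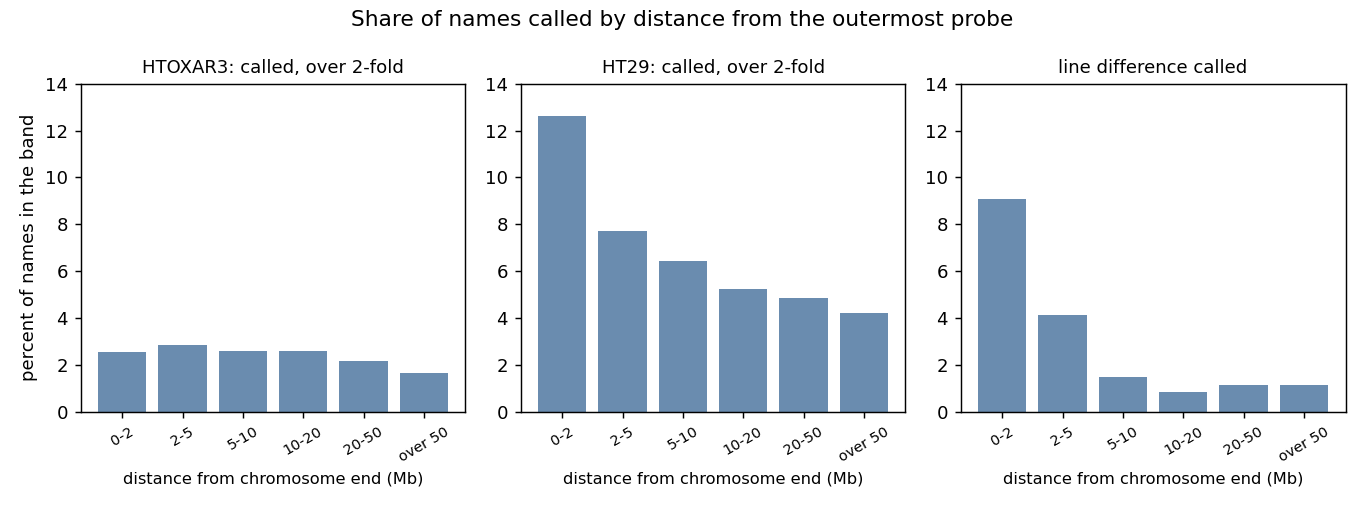
Share of gene names (percent) by distance of the probe from the outermost probe of the chromosome (Mb), for names called and past 2-fold in HTOXAR3, the same in HT29, and names called in the line difference. Bars are within 1.67 to 2.83% in HTOXAR3, and fall from 12.6 to 4.22% in HT29 and from 9.07 to about 1% for the line difference.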

How the data were processed

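HTOXAR3 cells, untreated or given OXA, were profiled with the 12 other samples on 1-colour Agilent arrays, whose probe positions are on GRCh37. The deposited scanner files (Agilent Feature Extraction 10.7.3.1) hold spot and background intensity on a linear scale, and the authors labelled 100 ng of RNA with Cy3. The authors' table of processed log2 values served as an alternative. In R 4.3.3, intensities were background corrected (normexp), freed of 4259 control spots, quantile normalised and averaged per probe, which left 36204 gene names, each read from its brightest probe. All 18 arrays were fitted with 6 group terms in limma 3.58.1. The thresholds for calls were those of the study (Benjamini-Yekutieli p under 0.05, fold over 1.2). The code was tested on simulated data. The genes named were the largest called rises and falls, among names well above background on all 6 arrays and without overlap of the groups. The largest called members of each list were named as well. Others are said to be chosen after their values were seen or serve to complete a list. The members and lists were chosen with earlier results of these data known. Same-numbered replicates correlated at 0.264, -0.097 and 0.174, so numbers were not taken as pairs. The number of arrays limits the precision. Some members of the lists are counted but not named here.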

Additional observations from a re-analysis of the deposited data

Results flagged for a closer look

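The responses of HTOXAR3 and HT29 to OXA differed, by the test of the line difference in limma (adjusted p below 0.05 and fold above 1.2), for the named genes below. Values are the HTOXAR3 response minus the HT29 response on the log2 scale, and dose differed with line. Genes that rose in both lines rose less in HTOXAR3 for PDE6G (-3.54), SPON2 (-2.87), RGS11 (-1.87), TUBB3 (-1.72), BAIAP3 (-1.64), ZDHHC11 (-1.60), ZDHHC11B (-1.59), ADSS1 (-1.31), CCK (-1.07), KRT80 (-0.93) and PLAU (-0.77).

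Genes that fell in both lines fell less in HTOXAR3 for SLC19A1 (3.88), SLC38A10 (3.61), PIGQ (3.53), CHLSN (3.24), ARFRP1 (3.1), BOP1 (2.64), BOK (1.67), SLC7A5 (0.86), DHRS2 (0.84) and HK2 (0.62). The SLC38A10 and PIGQ calls in HTOXAR3 were fragile. With probes of a gene averaged the line difference was 1.24 for SLC38A10, 1.47 for ARFRP1 and -1.59 for SPON2.

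The remaining differences came from genes called in 1 line or moving in opposite directions. BMP2 (1.25), BAMBI (1.16), FAS (0.76) and PMAIP1 (0.62) were called in HTOXAR3 and not in HT29. IVL (-1.80) fell in HTOXAR3 and was too dim in HT29 for a fall of that size to be read, so the value does not compare responses. CXCL2 (-1.38) fell in HTOXAR3 and rose in HT29, and CXCL1 (-1.53) was called in HT29 and not in HTOXAR3. GADD45A, a p53 target, differed by 0.82 and measured -0.01 in HTOXAR3. VIL1, which encodes villin of the brush border, differed by -0.82. RNA5-8SN5 (2.60) was called lower in HT29 and not called in HTOXAR3. APC2 (2.03), DOK7 (1.85) and DHRS9 (1.32) rose in HTOXAR3 and fell in HT29.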

How the results depend on the processing

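The 3709 names called in HTOXAR3 became 592 when only the 6 arrays compared entered the fit, 5998 with Benjamini-Hochberg adjustment, 468 with a fold minimum of 2, and 1900 without untreated replicate 2 and OXA replicate 1 together, an alternative chosen after seeing the data. The 364 line differences became 638 with a normexp offset of 50, 610 over names well above background, 216 with only the arrays compared, 1087 with Benjamini-Hochberg adjustment and 178 at 2-fold. HT29 gave 1338 with only the arrays compared and 1179 at 2-fold. Leaving out 1 array gave 2618 to 2861 calls in HTOXAR3, 259 to 321 line differences and 4647 to 5265 in HT29. With replicate number as a block 3718 names were called in HTOXAR3, 329 in the line difference and 5797 in HT29. Slide as a block gave 3759, 360 and 6124. The authors' values gave 3890 calls, and without the names read by probes with GAGAGAGA 3663 were called. Of 177 named genes, 93 lost their call with only the arrays compared, among them KLF4, DUSP5 and BMP2, and 47 without untreated replicate 2 and OXA replicate 1, among them CDKN1A, and none was reversed. The cause of these shifts was not tested, apart from fewer arrays where arrays were left out. With the probes of each gene averaged, the calls of KRT14 (0.39), ERCC5 (-0.21), MSH6 (-0.13) and ABCB1 (0.28) were lost, and SREBF1 (-0.63), LAMA3 (0.62) and EGFR (0.77) were smaller but kept.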

Other observations

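Gene length was compared after the data were seen. Over 117 protein-coding names longer than 500 kb, of 12799 with a length, the median difference in HTOXAR3 was -0.14, and -0.36 in HT29. With each gene centred on its untreated mean, the median of the long genes minus that of the others was -0.15, -0.20 and -0.17 on the 3 OXA arrays. THSD4, WWOX, a gene across a fragile site, and IMMP2L fell by 1.64, 1.63 and 1.21, while GLIS3 and PDE10A rose by 1.32 and 0.78. Of the 117, 11 were called higher (9.4%) and 14 lower (12%), against 12.9 and 12.1% of names up to 10 kb and 13.2 and 9.15% of those from 10 to 50 kb.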
